A study of Mus musculus with 22 samples.

Results

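The sites described here were open in resting mouse macrophages and had no peak once the cells were given either lipopolysaccharide (LPS) or lactic acid (LA) alone. They were chosen by peak presence: peaks of all 12 chromatin samples that shared at least 1 bp were merged into 127890 sites, and a site was taken when all 3 control samples had a peak there and none of the 3 LPS and none of the 3 LA samples did. This left 1132 sites of the 72764 that had a peak in 3 of 3 control samples. The control, LPS and LA samples chose the sites, so their values there are given as a description with no test. The LPS+LA samples and the RNA were not used in the choice.

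The cells were bone marrow-derived macrophages (BMDMs) of the mouse strain C57/BL6, grown from bone marrow in medium with L929 cell supernatant for 7 days. They were left untreated (control), or treated for 3 hours with LPS at 100 ng/ml, with LPS at 100 ng/ml plus L-(+)-lactic acid at 10 mM (LPS+LA), or with lactic acid and no LPS (LA), whose concentration the labels do not give separately. Open chromatin was measured in 3 samples of each of these groups by ATAC-seq, which maps where a transposase can reach the DNA, and RNA by sequencing in 2 samples of each. RNA was also measured in 2 samples with LPS in medium brought to low pH with hydrochloric acid (LPS+HCl), which has no chromatin counterpart. The labels do not say whether replicates came from separate mice or cultures, so the p-values given rest on a spread between samples that may be technical. In such bulk samples fewer cells of a kind and less RNA per cell cannot be told apart.

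Macrophage enhancers are short stretches of open chromatin, often far from gene starts, that lineage factors such as PU.1 hold accessible in resting cells. LPS, a component of the outer membrane of Gram-negative bacteria, is sensed by Toll-like receptor 4, which acts through NF-kB, AP-1 and interferon regulatory factors to open some enhancers and shut others. Lactic acid is the end product of glycolysis and leaves cells together with a proton, so that it brings both the lactate anion and acidity to the macrophage.

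Few of the sites lay at a gene start, and 3 of these, in promoters of genes with measured RNA, are shown as examples picked after their values were seen. The sites of 2 other such genes with enough counts to be tested, B3galt5 and Fam167b, overlapped 243 and 232 bases of the promoter, more than that of Pim1 (146). The site of Epor, whose RNA had too few counts to be tested, overlapped 275. The 3 are the scavenger and fatty acid receptor Cd36, the serine/threonine kinase Pim1 and P2ry10b, a G protein-coupled receptor of the P2Y family. Each line gives the 250 bases before 1 RefSeq start of the gene on GRCm38.p6, 5′ to 3′ on its strand, with the bases inside the site in capitals. For Cd36, whose bounds are chr5:17781690-17888959, and for Pim1, this start lies inside the bounds of the gene. It is therefore not the outermost start of either gene. The windows are chr5:17835897-17836146 on the minus strand for Cd36, chr17:29492835-29493084 on the plus strand for Pim1 and chrX:107149365-107149614 on the plus strand for P2ry10b.
Cd36: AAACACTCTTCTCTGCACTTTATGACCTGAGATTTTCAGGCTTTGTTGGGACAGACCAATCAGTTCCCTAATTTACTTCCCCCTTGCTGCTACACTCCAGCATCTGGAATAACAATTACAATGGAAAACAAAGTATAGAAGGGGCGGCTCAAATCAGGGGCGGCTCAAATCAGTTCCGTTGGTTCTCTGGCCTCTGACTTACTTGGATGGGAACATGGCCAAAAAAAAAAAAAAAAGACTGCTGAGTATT
Pim1: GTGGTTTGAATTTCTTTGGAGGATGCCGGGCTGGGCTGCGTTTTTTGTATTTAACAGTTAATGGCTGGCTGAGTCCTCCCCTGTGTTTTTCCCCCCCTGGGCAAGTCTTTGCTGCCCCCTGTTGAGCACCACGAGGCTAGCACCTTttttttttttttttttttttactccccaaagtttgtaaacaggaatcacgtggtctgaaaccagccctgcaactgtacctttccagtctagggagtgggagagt
P2ry10b: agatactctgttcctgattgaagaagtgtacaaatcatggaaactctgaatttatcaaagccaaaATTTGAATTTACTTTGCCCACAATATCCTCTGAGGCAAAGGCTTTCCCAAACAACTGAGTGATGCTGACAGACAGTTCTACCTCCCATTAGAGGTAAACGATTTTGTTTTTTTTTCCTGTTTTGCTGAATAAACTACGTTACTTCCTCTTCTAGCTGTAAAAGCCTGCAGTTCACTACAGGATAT
The Cd36 site, chr5:17835792-17836174, covered the whole window, and its peak scores in the control samples were 11.7, 15.4 and 17.0. The Pim1 site, chr17:29492717-29492980, covered bases 1 to 146 of the window, with scores of 13.2, 9.60 and 14.5. The P2ry10b site, chrX:107149430-107149787, began at base 66, with scores of 6.98, 9.72 and 6.93. None of the 3 sites had a peak in an LPS+LA sample.

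In all, 21 sites overlapped 22 windows that run from 250 bases before to 50 bases after a RefSeq gene start. These windows were searched on both strands for 16 short motifs: AP-1 (TGANTCA), CRE (TGACGT), PU.1/ETS (GAGGAAG), RUNX (TGTGGTT), C/EBP (TTGCNNAA), NF-kB (GGGNNTTCC), IRF (GAAA, 2 bases of any kind, GAAA), E-box (CACGTG), MITF/TFE (CATGTG), KLF/SP (GGGGCGGG), the nuclear receptor site (AGGTCA), MEF2 (CTA, 4 bases of any kind, TAG), NFY (CCAAT), EGR (GTGGGCG), CTCF (AGGGGGC) and MAF (TGCTGA). The MAF letters stood in 10 of the 22 windows and in 19.5% of all 32851 windows, and the PU.1/ETS letters in 6 of 22 and in 13.6% of all. The AP-1 letters stood in 1 of 22 and in 7.81% of all. The CRE, NF-kB, IRF and EGR letters stood in none of the 22 (7.51%, 5.82%, 3.44% and 7.97% of all). The MEF2 and E-box letters stood in 3 each (3.69% and 7.15% of all). The C/EBP, CTCF and MITF/TFE letters stood in 4 each (10.8%, 10.6% and 14.15%). NFY and nuclear receptor letters stood in 5 each (37.4% and 16.3%), KLF/SP in 2 (16.5%) and RUNX in 1 (5.27%). In the Cd36 window the nuclear receptor letters begin at base 23, CCAAT at base 56 and the MAF letters at base 240, all inside the site. In the Pim1 window the CTCF letters begin at base 114, inside the site, and the E-box at base 193, outside it. The counts are over whole windows, not over the part inside a site. The PU.1/ETS letters lie outside the site in the windows of Rgs7, 5031425F14Rik, Chp2 and Hoatz, while the MAF letters lie inside it in each of their windows. P2ry10b has overlapping windows on 1 site, which share a MAF match. With 22 windows these counts are small, and a match to letters is a description of the sequence only.

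Across the whole series, the chromatin samples held 76680 to 100667 peaks each, with the fewest in LA (76680 to 80820), then control (80386 to 86566), LPS (88807 to 100667) and LPS+LA (85571 to 99435). The file headers place control and LPS libraries on sequencing lane 5 and LA and LPS+LA libraries on lane 6, so the lane and lactic acid cannot be told apart, while control and LPS share a lane. RNA libraries held 18668648 to 20219888 counts. Summed over 8 macrophage markers, RNA levels ran from 13180 to 18970 CPM (counts scaled to the normalised library size), while 7 neutrophil markers summed to at most 3.16 CPM, 6 dendritic cell markers to at most 10.3 CPM, and each of 6 further lists of T, B, natural killer, erythroid, mast and stromal cell markers to at most 5.95 CPM. Transcripts of 8 neuron and brain markers summed to 27.5 to 75.3 CPM, highest in control replicate 1 (71.3) and LPS+HCl replicate 2 (75.3). Fits without these 2 libraries are given below where they changed a result. Such fits cannot tell the part of these transcripts from that of having fewer libraries, and it was not tested otherwise.

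The sites were narrow, weak control peaks. Their width had a median of 315 bp (202 to 1292 bp), against 548 bp for all control sites, 377 bp for sites lost in LPS only and 406 bp for those lost in LA only. This is the width of the merged peaks, so it can grow with the number of samples that have a peak. Each peak's score was ranked within its own sample, from 0 for the weakest to 100 for the strongest, and over the 3 control samples the sites' mean percentile had a median of 16.3, with quartiles of 10.6 and 22.6 and a highest value of 61.8. The medians in the 3 control samples were 17.9, 14.01 and 17.5. The median of the mean percentile was 56.1 for all control sites, 32.4 for sites lost in LPS only and 17.9 for those lost in LA only, which were nearly as weak. Just outside the rule, 1234 sites had a peak in 3 of 3 control samples and in 1 of the 6 LPS and LA samples, and 1770 sites had a peak in 2 of 3 control samples and in none of those 6.

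**Figure D1:**
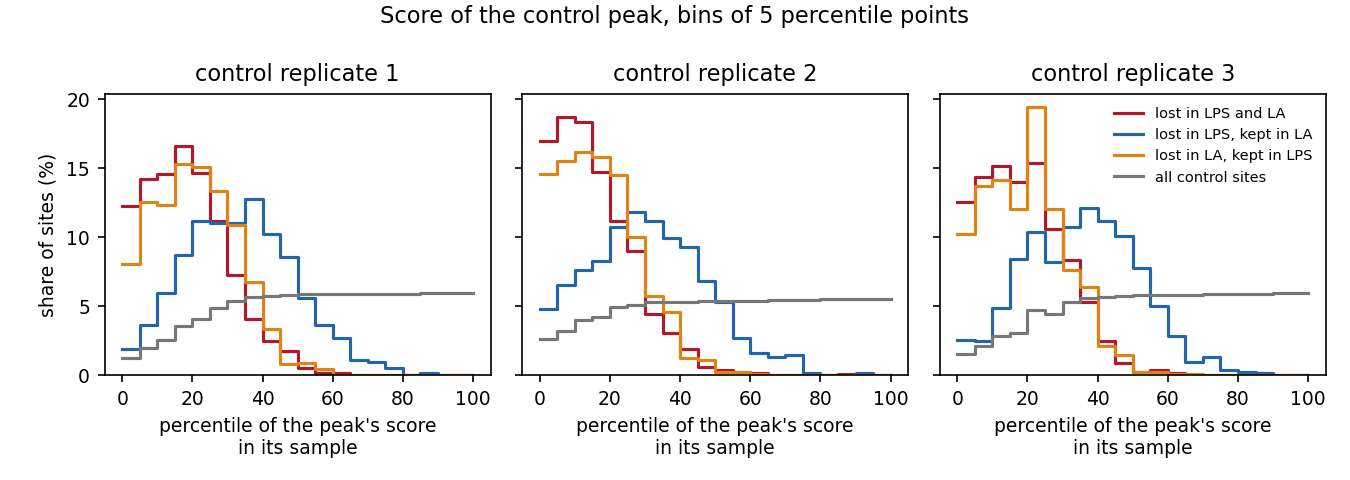
Share of sites (vertical axis, %) by the percentile of the control peak's score within its own sample (horizontal axis, bins of 5 points), 1 panel per control replicate and 1 line per set of sites. Sites lost in LPS and LA sit at the low end in every panel, with medians of 17.9, 14.01 and 17.5, while all control sites spread over the whole range.

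10 sites stood highest when ranked by their lowest percentile over the 3 control samples. The first, chr10:41933558-41934034, lies in Armc2 and had control scores of 60.5, 42.2 and 50.5, and 1 LPS+LA sample had a peak there with a score of 5.999. The second, chr12:32238388-32238923, lies 29711 bp from Pik3cg, which encodes the catalytic subunit p110-gamma of a phosphoinositide 3-kinase, and had scores of 51.4, 40.2 and 46.1. The other 8 had no LPS+LA peak, and include sites inside Marchf8 (chr6:116403689-116404228), a ubiquitin ligase of membrane proteins, inside Slc23a2 (chr2:132095865-132096193), a vitamin C transporter, and 5583 bp from Nr4a1 (chr15:101247972-101248319), an orphan nuclear receptor.

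In LPS+LA, most of these sites were still without a peak. Of the 1132 sites, 927 (81.9%) had a peak in 0 of 3 LPS+LA samples, 143 (12.6%) in 1, 46 (4.06%) in 2 and 16 (1.41%) in 3. The 3 LPS+LA samples had a peak at 40, 125 and 118 of the sites, or 3.53%, 11.0% and 10.4%, a mean of 8.33% ± 4.17 (SD, n = 3). Replicate 1 was the lowest, and it also had the fewest peaks of its group (85571 against 99435 and 99416). Where an LPS+LA peak was present it was weak: the median percentile of its score was 8.07, 7.28 and 6.38 in the 3 samples, and it lay below the site's own control mean at 30 of 40, 93 of 125 and 86 of 118 sites.

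Sites lost to 1 treatment only behaved otherwise in LPS+LA. Of 733 sites with no LPS peak but a peak in 3 of 3 LA samples, the 3 LPS+LA samples had a peak at 34.4%, 57.2% and 56.5%. Of 889 sites with no LA peak but a peak in 3 of 3 LPS samples, they had one at 46.5%, 70.4% and 72.3%. Within each LPS+LA sample the share was thus higher than at sites lost to both, by 41.0 ± 8.80 percentage points (SD, n = 3) for the first set and 54.7 ± 10.3 for the second. The 2 differences were larger than the spread between samples, but the comparison sets were chosen to have peaks in LA or in LPS. A higher share in LPS+LA, which holds both agents, can come from that choice, and its part was not tested. An exact paired permutation test, two-sided and added after the data were seen, gave p = 0.25 for both. Adjustment over the 2 tests left this value unchanged. It is the lowest that this exact permutation test can give with 3 samples, so the test cannot decide. Of all 72764 control sites, 95.2% had a peak in at least 1 LPS+LA sample, and of 1109 sites without a control peak that had one in all LPS and all LA samples, 98.6% had one in 3 of 3 LPS+LA samples.

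**Figure D2:**
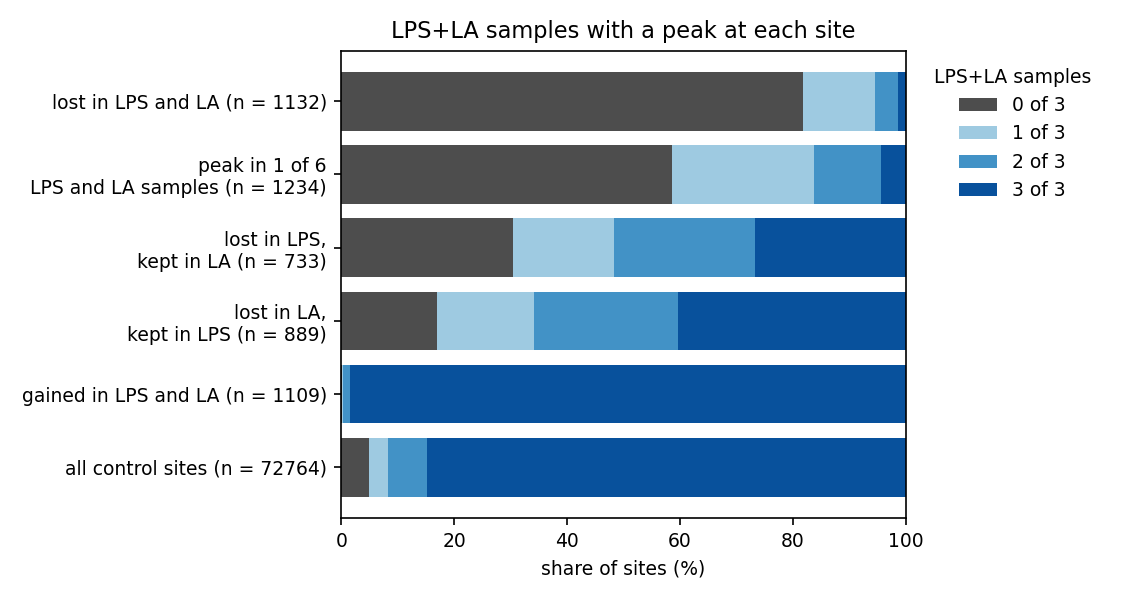
Share of sites (horizontal axis, %) with a peak in 0, 1, 2 or 3 of the 3 LPS+LA samples (shades), 1 bar per set of sites. Of the sites lost in LPS and LA 81.9% had none, against 98.6% with all 3 among sites gained in both.

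The share was lower than that of all control sites within each of 4 ranges of control score. Of those 72764 control sites, 57842 had a peak in all LPS and all LA samples. A lower share in LPS+LA can come from the choice of sites without such peaks, and its part was not tested. Among sites whose mean control percentile was 0 to 10, 10 to 20, 20 to 30 and over 30, the share with any LPS+LA peak was 22.6% (248 sites), 18.5% (496), 16.9% (266) and 9.84% (122) for those lost in LPS and LA. It fell from the weakest to the strongest control peaks. In the same ranges it was 72.7%, 80.6%, 87.2% and 98.4% for all control sites, and so rose. Sites lost in LPS only had 87.0%, 77.2%, 73.4% and 64.6%, and sites lost in LA only 88.7%, 87.1%, 82.0% and 64.9%. With only 1 of 6 LPS and LA peaks, the share was 41.3%, and with a peak in 2 rather than 3 control samples and none in those 6 it was 18.7%.

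**Figure D3:**
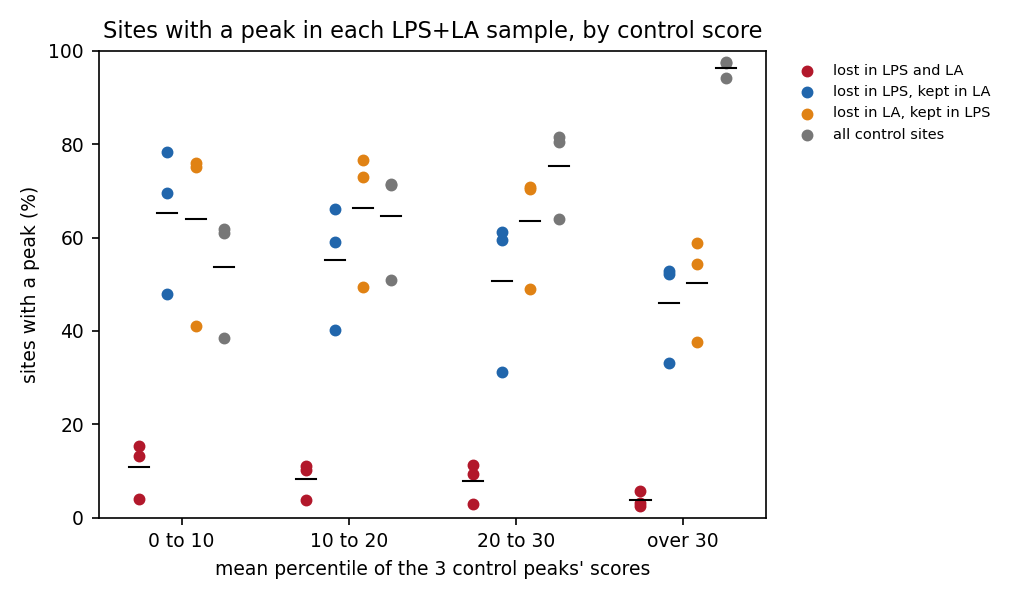
Share of sites with a peak in each LPS+LA sample (vertical axis, %; points are the 3 samples and bars their mean) by the mean percentile of the control peaks' scores (horizontal axis). Sites lost in LPS and LA lie below the other sets in every range and every sample. They were chosen to have no LPS and no LA peak, and the part of that choice was not tested.

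16 sites had a peak in all 3 LPS+LA samples. One of them, chr2:91112522-91112884, lies in Spi1, the gene of PU.1 itself. Its control scores were 8.14, 3.25 and 11.2 and its LPS+LA scores 4.51, 6.41 and 10.0. The peak in control replicate 2 was among the weakest of that sample, at percentile 0.066. By lowest control percentile this site was the last of the 16. The strongest of the 16 in control was chr5:66164115-66164471, 12161 bp from the RNA-binding protein gene Rbm47, with control scores of 13.5, 15.1 and 29.0 and LPS+LA scores of 9.07, 17.4 and 24.1. Others lie in Akirin2 and Ubac2 and within 50 kb of Abl2, Kit and Kitl.

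The sites lay away from gene starts. Of the 1097 sites on chromosomes with gene starts in the promoter table (35 on chromosome 18 were not placed), 21 (1.91%) overlapped a promoter window, against 14.9% of control sites placed the same way. The share was 2.42% for sites lost in LPS only, 4.17% for those lost in LA only and 1.77% for those gained in both. The median distance to the nearest gene start was 19235 bp, against 14575.5 bp for control sites, and 5.20% against 18.05% lay within 1 kb. Inside the bounds of a gene were 649 (57.3%), against 61.4% of control sites. None overlapped a miRNA hairpin.

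**Figure D4:**
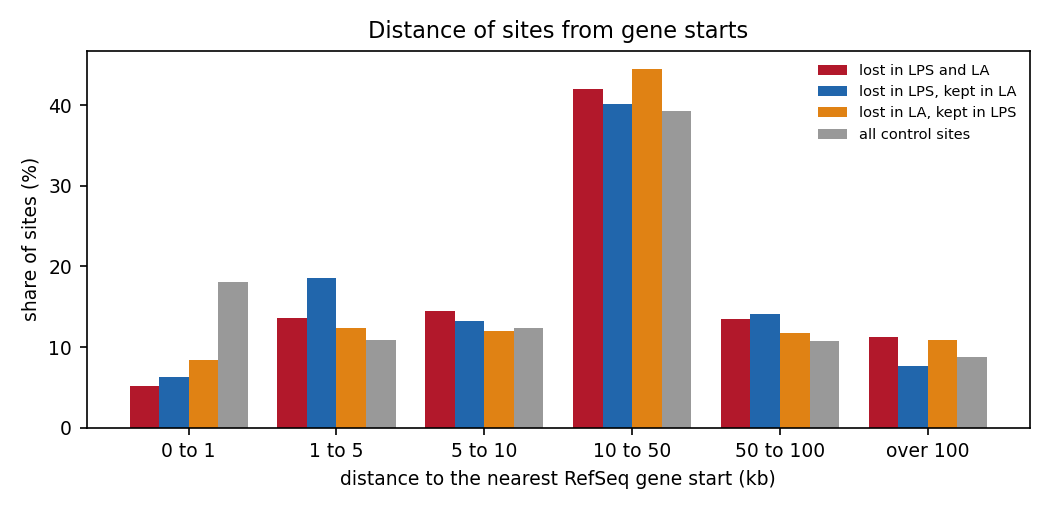
Share of sites (vertical axis, %) by distance to the nearest RefSeq gene start (horizontal axis, kb), for 4 sets of sites. Within 1 kb lie 5.20% of the sites lost in LPS and LA and 18.05% of all control sites.

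Most of the sites lay more than 10 kb from any other of the set. Within 10 kb of another lay 26 (2.30%), a share that was not counted for other sets of sites. On chromosomes that held any, the number of the sites ran from 12.3 per 1000 control sites on chromosome 19 to 21.3 on chromosome 16. A site with a peak in all 12 samples lay within 1 kb of 211 of them (18.6%) and within 10 kb of 818 (72.3%). Of control sites compared the same way 14.4% and 65.4% had one so near, and of sites lost in LPS only 21.8% and 82.95%. These differences were not tested.

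For the RNA, each site was linked to the nearest gene of the RNA table within 50 kb of its bounds, which gave 969 linked sites (85.6%) and 916 genes. Of these genes 773 had enough counts to be tested. A link is by distance only. In LPS against control, 274 of the 773 (35.4%) were lower and 268 (34.7%) higher at an adjusted p under 0.05, where 32.4% of the 12213 genes tested were lower and 32.4% higher, so that the linked genes moved about as often as others and in both directions. In LA against control, 183 (23.7%) were lower and 157 (20.3%) higher, against 17.9% and 20.4%. The larger share of lower genes in LA was also seen near sites lost in LPS only (21.9%), lost in LA only (24.4%) and gained in both (22.7%). Linked genes were long, with a median of 69094 bp against 23213 bp for all genes tested, and the part of length in these shares was not tested.

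In LPS+LA against control, 222 (28.7%) were lower and 216 (27.9%) higher, with 24.9% and 26.4% of all genes. In LPS+LA against LPS, 254 (32.9%) were lower and 251 (32.5%) higher, with 29.7% and 29.2% of all genes. In LPS+HCl against LPS, 176 (22.8%) were lower and 194 (25.1%) higher, with 20.8% and 18% of all genes. The share higher in LPS+HCl was 26.4% near sites lost in LPS only, 21.0% near those lost in LA only and 24.6% near those gained in both. These values use TMM scaling, which sets most genes level; scaled by total counts, the median of all genes in LPS against control moves from -0.05 to -0.77 on the log2 scale, and the split of linked genes becomes 66.6% lower and 17.6% higher, with 67.9% and 14.4% of all genes. LPS changes of single genes below move by the same amount under that scaling, and are read relative to it. Changes of single genes are log2 fold changes ± SE against control, with LPS given before LA, and each passed the test at an adjusted p under 0.05 unless its adjusted p is printed or it is said not to have passed.

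9 genes had 3 of the sites each. Tgfbr2, the type II receptor that binds TGF-beta, has sites at chr9:116133416-116133912 and chr9:116169123-116169389 inside the gene and chr9:116042639-116042929 at 44766 bp from it, none with an LPS+LA peak. Its RNA was 155 and 158 CPM in control, 96.7 and 103 in LPS, 91.6 and 83.6 in LA and 86.1 and 88.2 in LPS+LA. All treated libraries were below both control libraries. The log2 fold change was -0.64 ± 0.08 (SE) in LPS (adjusted p = 9.01e-08) and -0.84 ± 0.08 in LA (adjusted p = 9.04e-09).

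Nfatc2, a calcium-regulated transcription factor with 3 sites inside the gene, fell in LPS: 92.7 and 98.0 CPM in control, 21.8 and 21.5 in LPS, 97.5 and 102 in LA, 101 and 110 in LPS+LA, and 73.0 and 77.1 in LPS+HCl. LPS changed it by -2.14 ± 0.09 (log2, adjusted p = 4.37e-16), and LPS+LA stood 2.29 ± 0.09 above LPS (adjusted p = 4.92e-16) although none of the 3 sites had a peak in LPS+LA. Foxp1 and Hivep3, transcription factors with 3 sites inside each gene, rose in LPS by 2.33 ± 0.07 and 3.44 ± 0.08. In LA, Foxp1 changed by 0.02 ± 0.07 (adjusted p = 0.846) and Hivep3 by 0.34 ± 0.08 (adjusted p = 0.00243, or 0.0519 without LA replicate 2). Zranb3, a DNA-remodelling enzyme of stalled replication forks, fell in both (log2 -1.12 ± 0.09 and -0.33 ± 0.08). Vps13d, a lipid transfer protein, rose in LPS by 1.20 ± 0.08, with -0.18 ± 0.08 in LA (adjusted p = 0.0781; by total counts -0.29, adjusted p = 0.00629). The stress kinase Map3k20 passed neither test under TMM scaling (0.13 ± 0.09 and 0.14 ± 0.09), but was lower in LPS by total counts (-0.59).

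Genes near the strongest control peaks moved in several ways. Pik3cg was at 185 and 185 CPM in control, 86.5 and 93.0 in LPS, 116 and 119 in LA and 90.4 and 101 in LPS+LA, and so fell in both (log2 -1.05 ± 0.08 and -0.66 ± 0.08, adjusted p = 3.04e-11 and 4.61e-07). Marchf8 was at 83.4 and 76.4 CPM in control, 58.1 and 52.6 in LPS, 48.6 and 43.4 in LA and 41.0 and 38.2 in LPS+LA, and fell in both (log2 -0.53 ± 0.10 and -0.80 ± 0.09). Slc23a2 rose by 1.72 ± 0.07 in LPS and fell by 0.56 ± 0.07 in LA. Nr4a1 was at 3.44 and 3.33 CPM in control, 1.94 and 1.59 in LPS, 180 and 156 in LA and 78.2 and 87.9 in LPS+LA: it fell by 0.93 ± 0.22 in LPS and rose by 5.64 ± 0.13 in LA, near a site without a peak in either. Atp6v0c, a subunit of the proton pump of lysosomes, rose by 0.38 ± 0.07 and 0.39 ± 0.07, and the ubiquitin-conjugating enzyme Ube2h by 0.49 ± 0.10 and 0.85 ± 0.10, but by total counts both were lower in LPS (-0.34 and -0.23).

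Among the largest falls in LA were 6 linked genes that fell in LPS as well. Flrt2 and Ccl3, chosen by the same rule, rose in LPS, with changes for Flrt2 of 0.86 ± 0.14 in LPS and -1.04 ± 0.15 in LA. The share of all genes lower in both treatments was not counted, so the 6 are examples only. Fnip2, a partner of folliculin in nutrient signalling, was at 326 and 324 CPM in control, 31.6 and 25.05 in LPS, 109 and 108 in LA, 114 and 125 in LPS+LA, and 32.4 and 31.5 in LPS+HCl. Its site, chr3:79454082-79454886, lies 1085 bp from the gene. LPS changed it by -3.52 ± 0.10 (adjusted p = 8.08e-20) and LA by -1.59 ± 0.08 (adjusted p = 6.65e-13), and LPS+LA stood 2.07 ± 0.09 above LPS, with values close to those of LA alone. Snx24, a sorting nexin, changed by -4.16 ± 0.19 and -1.09 ± 0.13, Etl4 by -5.62 ± 0.36 and -1.05 ± 0.21, Gab3, an adaptor of the receptor for macrophage colony-stimulating factor, by -3.82 ± 0.26 and -1.10 ± 0.19, and Nhsl2 by -1.52 ± 0.21 and -1.19 ± 0.20. Invs, the gene of inversin, changed by -0.60 ± 0.21 and -1.28 ± 0.21; its LPS change (adjusted p = 0.01395) missed the threshold without control replicate 1 (0.0793), LPS replicate 1 (0.0543) or LPS replicate 2 (0.0859) and by DESeq2 (0.0575). Without LPS replicate 1 the LPS change of Etl4 was -6.39.

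Other linked genes moved in opposite directions in the 2 treatments. The transcription factor list held 39 genes, of which 6 were linked. Of these 5 fell in LPS and none rose (median log2 -2.19), while in LA none fell and 3 rose (median 0.38). Of all 39, 23 were lower and 12 higher in LPS (median -0.45), and 8 lower and 17 higher in LA (median 0.13). The list does not hold every linked transcription factor: Foxp1, Hivep3, Irf1, Irf8 and Spi1 are outside it and rose in LPS, and E2f2 is outside it and fell. Klf2, a Krüppel-like factor that restrains macrophage activation, was at 40.6 and 44.7 CPM in control, 5.77 and 4.69 in LPS, 54.0 and 66.0 in LA and 62.7 and 63.7 in LPS+LA. Its log2 change was -3.02 ± 0.14 in LPS and 0.49 ± 0.11 in LA. Smad3, which carries TGF-beta signals to the nucleus, changed by -2.24 ± 0.15 and 1.13 ± 0.11, and Zfp36l1, a protein that triggers decay of AU-rich mRNAs, by -2.25 ± 0.09 and 0.85 ± 0.08. All 3 stood higher in LPS+LA than in LPS, by 3.59 ± 0.14, 3.47 ± 0.14 and 3.17 ± 0.09, and none of the sites linked to them had an LPS+LA peak. These sites lie outside the genes, at 23657 bp from Klf2, 24698 bp from Smad3 and 47098 and 49932 bp from Zfp36l1. E2f2, a cell cycle factor, changed by -4.40 ± 0.14 and 0.68 ± 0.09, Plekhg3 by -4.76 ± 0.14 and 1.00 ± 0.09, and Zfp395 by -6.56 ± 0.21 and 0.46 ± 0.11. The sites of E2f2 and Zfp395 each had a peak in 1 LPS+LA sample, and that of Plekhg3 had none. Chst3, a chondroitin sulfotransferase, and Irf2bpl changed by -1.97 ± 0.19 and -0.73 ± 0.10 in LPS and rose by 2.02 ± 0.14 and 2.02 ± 0.10 in LA.

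**Figure D5:**
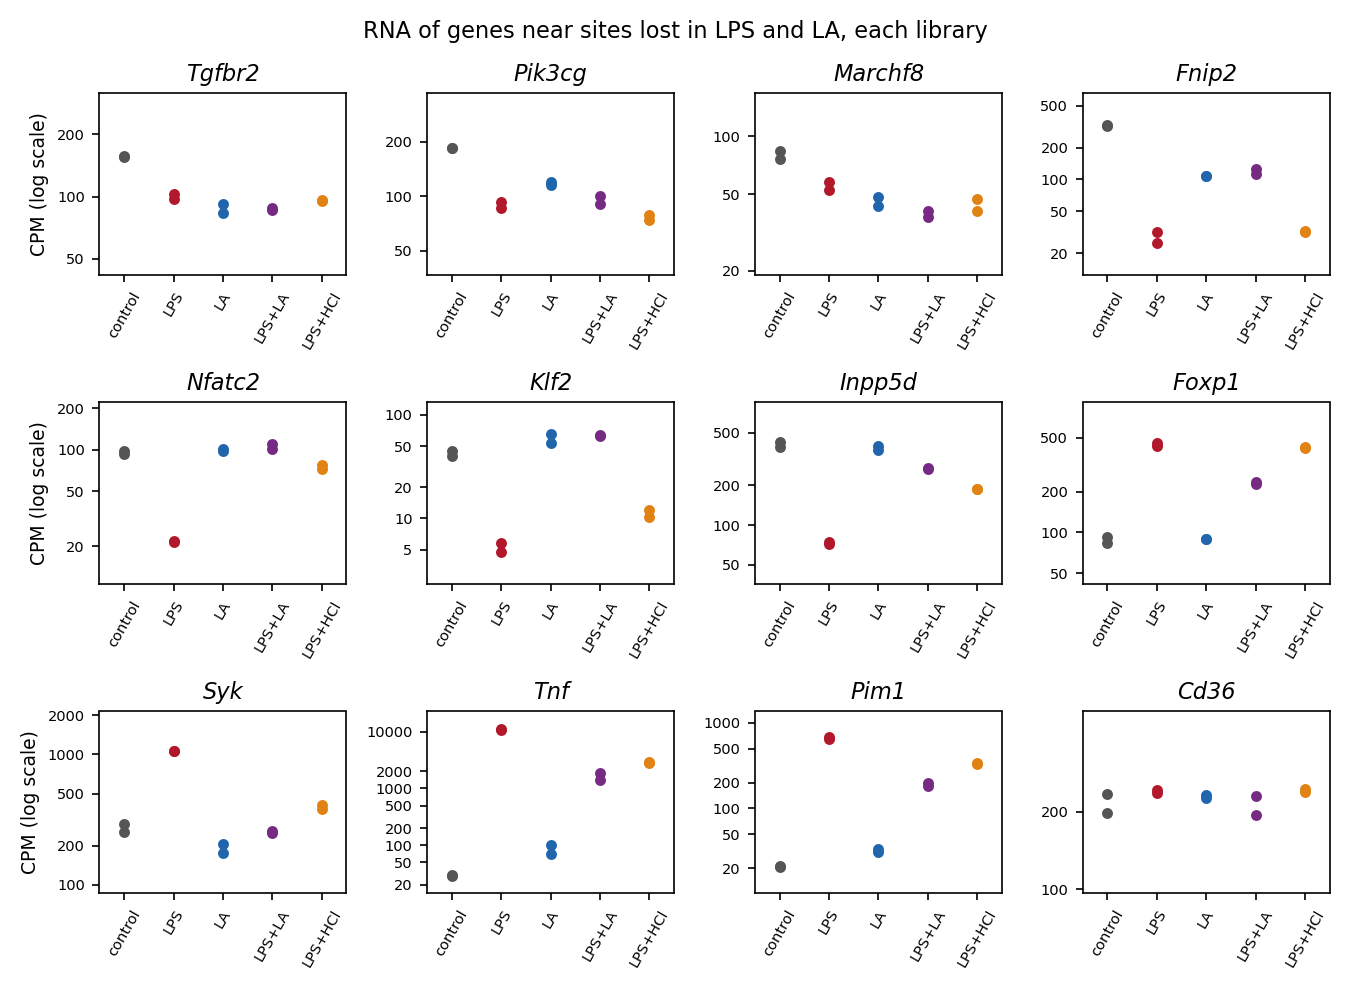
RNA of 12 genes linked to sites lost in LPS and LA (vertical axis, CPM on a log scale; points are the 2 libraries of each group). Tgfbr2, Pik3cg and Marchf8 lie below control in every treated library, Nfatc2 and Klf2 are lowest in LPS, Tnf and Pim1 highest in LPS, and both Cd36 values in LA lie between those of control.

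All 6 linked genes of the 29 inflammatory genes rose in LPS (28 of the 29 did) and all 6 were lower in LPS+LA than in LPS (26 of 29). Tnf, the cytokine tumour necrosis factor, has its site at chr17:35201022-35201282 inside the gene, with control scores of 10.3, 11.2 and 8.58. Its RNA was 29.3 and 29.4 CPM in control, 11340 and 10600 in LPS, 69.4 and 100 in LA, and 1865 and 1391 in LPS+LA. It rose by 8.54 ± 0.28 in LPS and by 1.53 ± 0.23 in LA (adjusted p = 0.00304, or 0.0705 without control replicate 1 and LPS+HCl replicate 2), and from LPS to LPS+LA it changed by -2.75 ± 0.21. Il1b, the cytokine interleukin 1 beta, rose by 12.51 ± 0.20 and 3.50 ± 0.28, and Irf1, an interferon regulatory factor, by 4.75 ± 0.08 and 0.36 ± 0.07. Nlrp3, an inflammasome sensor, Nfkb1, an NF-kB subunit, and the chemokine Ccl3 rose in LPS by 3.61 ± 0.08, 3.23 ± 0.07 and 7.75 ± 0.33 and changed in LA by -0.51 ± 0.08, -0.23 ± 0.07 and -1.05 ± 0.28. The LA change of Nfkb1 missed the threshold without control replicate 2 (adjusted p = 0.0954) or LA replicate 1 (0.0797), and that of Ccl3 (adjusted p = 0.0347) missed it without any 1 of the 8 libraries outside the LA group (0.0617 to 0.124). The size of that change rests on the LA libraries: it was -0.64 without LA replicate 1 and -1.62 without LA replicate 2.

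In the list of phosphoinositide, diacylglycerol and kinase signalling, 12 of 28 genes were linked, and in LA 8 of the 12 were lower and 1 higher (median -0.43), beside 14 lower and 4 higher of all 28 (median -0.20). Syk, a tyrosine kinase of immune receptors with 2 sites, was at 256 and 293 CPM in control, 1065 and 1056 in LPS, 175 and 205 in LA and 261 and 249 in LPS+LA, and so rose by 1.95 ± 0.08 in LPS and fell by 0.53 ± 0.08 in LA. Pik3ap1, an adaptor of phosphoinositide 3-kinase, changed by 1.61 ± 0.07 and -0.37 ± 0.07. Inpp5d, the lipid phosphatase SHIP1 with 2 sites inside the gene, changed in LPS by -2.47 ± 0.07 (log2), with -0.08 ± 0.07 in LA (adjusted p = 0.367; by total counts -0.19, adjusted p = 0.0231). Of 34 regulators of small GTPases 6 were linked, with 1 lower and 5 higher in LPS and 2 lower and 0 higher in LA; of all 34, 13 were lower and 15 higher in LPS, and 18 lower and 1 higher in LA. Dock4 was one of them, at 0.68 ± 0.09 in LPS and -0.72 ± 0.09 in LA; by total counts its LPS value was -0.04.

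Of 26 genes of macrophage identity and growth 8 were linked, among them Csf1r, Adgre1, Lyz2 and Mrc1, and 2 were lower and 4 higher in LPS, and 3 lower and 4 higher in LA. Of all 26, 9 were lower and 12 higher in LPS, and 6 lower and 12 higher in LA. Cd14, the co-receptor of LPS, rose by 2.85 ± 0.07 and 1.37 ± 0.07, and Irf8, an interferon regulatory factor of the myeloid lineage, by 3.11 ± 0.08 and 0.52 ± 0.07. Spi1 rose by 1.62 ± 0.08 in LPS; its LA value was 0.28 ± 0.08 (adjusted p = 0.00455), and the adjusted p was 0.120 without control replicate 1, 0.0669 without LA replicate 2 and 0.0565 by total counts. Of 15 genes of TGF-beta and Notch signalling 5 were linked, 3 lower and 2 higher in LPS and 1 lower and 3 higher in LA; of all 15, 8 were lower and 6 higher in LPS and 2 lower and 10 higher in LA. Besides Tgfbr2 and Smad3 these were Tgfbr1, at -2.50 ± 0.09 and 0.08 ± 0.08 (adjusted p = 0.473 in LA), Notch1, at 2.46 ± 0.09 and 1.17 ± 0.09, and Rbpj. The cell cycle list had 3 of 21 genes linked (2 lower and 1 higher in LPS, beside 17 and 3 of all 21), and the list of G protein-coupled and purinergic receptors 1 of 34, Gpr183, an oxysterol receptor, which fell by 1.86 ± 0.11 in LPS (15 of the 34 were lower and 15 higher). 2 further linked genes, Spsb1, an adaptor of ubiquitin ligases, and Errfi1, an inhibitor of the EGF receptor, rose in both, by 4.65 ± 0.12 and 3.77 ± 0.12 in LPS and 3.82 ± 0.12 and 2.45 ± 0.12 in LA.

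The genes of the 3 windows printed above differed in their RNA, which was counted per gene and not per start. Cd36, whose promoter window lay wholly inside its site, was at 234 and 198 CPM in control, 236 and 242 in LPS, 231 and 226 in LA and 231 and 194 in LPS+LA. Both LPS libraries were above both control libraries, but the control libraries lay further apart than LPS was from the higher of them, and both LA libraries lay between the control libraries. The change was 0.15 ± 0.08 in LPS (adjusted p = 0.123, or 0.0132 without control replicate 1, at 0.27) and 0.08 ± 0.08 in LA (adjusted p = 0.477); by total counts Cd36 was lower in LPS (-0.57). Of the 24 lysosome, lipid and scavenger genes 5 were lower and 12 higher in LPS, and 4 lower and 6 higher in LA. 4 of the 24 were linked, 2 higher in LPS and 1 lower in LA, which was the cholesterol exporter Abca1 at -0.50 ± 0.08, with -0.12 ± 0.08 in LPS (adjusted p = 0.216; by total counts -0.84, adjusted p = 8.72e-09). Pim1 was at 21.0 and 20.8 CPM in control, 678 and 656 in LPS, 34.0 and 31.2 in LA and 196 and 182 in LPS+LA. It rose by 5.00 ± 0.08 in LPS and 0.64 ± 0.08 in LA. Its site, before a start inside the bounds of the gene, had a peak in control only. P2ry10b was at 10.5 and 10.7 CPM in control, 22.3 and 20.5 in LPS, 7.56 and 7.81 in LA and 10.9 and 11.8 in LPS+LA. It changed by 1.01 ± 0.15 in LPS (by total counts 0.29, adjusted p = 0.0841) and by -0.46 ± 0.16 in LA (adjusted p = 0.0239), the latter missing the threshold without any 1 of the control or LA libraries (0.0551 to 0.0974).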

How the data were processed

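ATAC-seq peaks were deposited by the authors as 1 list per sample, each peak with a score; BWA 0.5.9, Picard and MACS2 2.0.10 and the build mm10/GRCm38 are named in the submitters' processing notes. The authors' list has no peak below its calling threshold, so a missing peak means a site under that threshold, not closed DNA. The RNA table holds the authors' expected counts per gene, of which 6.07% are not whole; they were rounded. Its deposited FPKM and TPM columns were not used here.

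The members and gene lists were chosen with earlier results of these data known. Overlapping peaks were merged (at least 1 bp) and scores ranked within each sample. Genes were placed with RefSeq GRCm38.p6 and linked to the nearest of 15959 genes within 50 kb. edgeR 4.0.16 (R 4.3.3) tested 12213 of 16059 genes by quasi-likelihood over all 10 libraries, with a count minimum of 10, a total of 15, TMM scaling and Benjamini-Hochberg adjustment over all genes tested; a called gene has an adjusted p under 0.05. DESeq2 1.42.0 was an alternative. The steps were tested on simulated data.

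Named sites were the 10 with the highest lowest control percentile, and the leading ones with 3 and with 0 LPS+LA peaks. Named genes came from those linked to 3 or more sites, the largest changes (a level of 10 CPM or more in some group, and libraries that did not overlap), up to 4 linked genes of each list by smallest adjusted p in LPS, and genes holding a named site. A few further linked genes of the lists are named in counts only. Not every gene so chosen is reported here.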

Additional observations from a re-analysis of the deposited data

Results flagged for a closer look

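15 of the named genes were flagged because lactic acid moved them in opposite directions with and without LPS, both changes passing edgeR's test and the test of the difference (interaction term) passing too. These calls are those of the main fit. The LA change without LPS missed the threshold for Spi1, Tnf and Hivep3 in some of the other fits given above. The value given is the log2 effect of LA under LPS minus that without LPS. It was positive for Etl4 (5.20), Gab3 (3.797), Snx24 (3.78), Fnip2 (3.66) and Zranb3 (1.19), which fell in LA alone and stood higher in LPS+LA than in LPS. It was negative for Il1b (-6.42), Spsb1 (-5.12), Tnf (-4.28), Errfi1 (-3.29), Pim1 (-2.46), Notch1 (-2.10), Irf8 (-1.94), Irf1 (-1.45), Spi1 (-1.27) and Hivep3 (-0.52), which rose in LA alone and stood lower in LPS+LA than in LPS. The adjusted p of the difference was largest for Hivep3 (4.6e-04) and next for Tnf (7.26e-05). By total counts the difference for Hivep3 was -0.014 (adjusted p = 0.931), so that its call depends on the scaling. For the other 14 genes the adjusted p of the difference was at most 0.00668 (Tnf, without control replicate 1 and LPS+HCl replicate 2) over both other edgeR scalings, the fit without a count filter, the replicate block and each library left out.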

How the results depend on the processing

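The number of sites was 1018 with the weakest 25% of peaks left out, 1103 with equal numbers of top-scoring peaks per sample, 1143 with peaks trimmed by 50 bp, 1070 with LPS and LA peaks widened by 250 bp and 1136 from control peaks only. Leaving out 1 sample gave 1132 to 2163, the highest without control replicate 2. Without a control, LPS or LA sample the rule is looser, which in itself can only add sites. Without an LPS+LA sample the share with any LPS+LA peak can only fall or stay. The share with any LPS+LA peak was 6.44% with equal numbers of peaks per sample, and 12.01% to 24.9% with 1 sample left out (24.9% without LPS replicate 1, 12.01% and 12.5% without LPS+LA replicates 2 and 3). By total-count scaling, linked genes were 66.6% lower and 17.6% higher in LPS against control, 50.3% lower and 16.7% higher in LPS+LA against control, 20.8% lower and 50.6% higher in LPS+LA against LPS, and 13.7% lower and 43.9% higher in LPS+HCl against LPS. All genes tested shifted likewise, to 67.9% and 14.4%, 46.9% and 13.96%, 16.6% and 50.8%, and 10.7% and 37.1%. For the 12 tested genes near sites with 3 of 3 LPS+LA peaks, 16.7% were lower in LPS, 8.33% in LA and 16.7% in LPS+LA against control, and 8.33% in LPS+HCl against LPS; so few genes set no share. Without control replicate 1 and LPS+HCl replicate 2, a choice made after seeing the data, 13.5% were higher in LA, beside 13.6% of all genes. With 1 library left out, the lower and higher shares ran from 29.9% to 34.7% and 31.2% to 34.0% in LPS and from 17.7% to 23.3% and 14.8% to 19.6% in LA. Linking by gene bounds, by 10 kb or to every gene within 50 kb, DESeq2, its size factors and no count filter kept each share within 1.5 times. Replicate numbers did not pair the libraries (correlations of deviations from -0.503 to 0.0495); with the number as a block, 35.1% were lower in LPS and 23.4% in LA, and the LA change of Ccl3 had an adjusted p of 0.0528. Of the single genes, the sign changed by total counts for Nfatc2 (-0.0457), Foxp1 (-0.0878), Tgfbr1 (-0.0316) and Cd36 (-0.0288) in LA and for Map3k20 (-0.59), Atp6v0c (-0.34), Ube2h (-0.23), Cd36 (-0.57) and Dock4 (-0.0425) in LPS. With 1 library left out, the LA change ran from -0.0513 to 0.0955 for Foxp1, from -0.0324 to 0.202 for Cd36 and from -0.0502 to 0.195 for Tgfbr1; the cause was not tested. The peak lists hold no read depth, so what depth limits in them was not tested.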
